A study of Mus musculus with 11 samples.

Results

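The regions described here are the stretches of open chromatin on mouse chromosome 13 that lie outside the interval from 58 to 70 Mb, which spans the segment exchanged between 2 inbred strains. They were chosen by position alone: every region of the table on chromosome 13 whose start lay below 58 Mb or at 70 Mb or beyond. This rule gave 10488 of the 248336 regions, and 10412 of them passed the filter on low counts and were tested, 5662 below the interval (the proximal flank) and 4750 beyond it (the distal flank). The assay was ATAC-seq, applied to 11 libraries from 4 mouse embryonic stem (ES) cell lines. B6 is the C57BL/6J line B6 5-1 (3 libraries) and D2 is the DBA/2J line D2 5-5 (3 libraries). B6-13D2 is line QJ 6-1 of the congenic strain B6.D2-(rs30079041-rs51756099)/Bakr, a B6 genome with a D2 segment of chromosome 13 (2 libraries). D2-13B6 is line XE 2-4, a D2 genome with a B6 segment (3 libraries), given as D2.B6-(rs29224292-rs13469455)/Bakr with the samples and with rs51756099 as its second marker in the series' design. All lines grew in serum medium with LIF and the inhibitors PD0325901 and CHIR99021, which block MEK and GSK3. Each genotype was 1 cell line and its libraries were technical replicates, so that each error and p-value measures only how libraries of one line vary, and each difference is one between cell lines.

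In ATAC-seq a transposase inserts sequencing adapters where DNA is not wrapped tightly, so that promoters, enhancers and insulator sites yield many fragments and packed chromatin yields few. A congenic strain carries a short segment of one inbred strain in the genome of another. Outside the segment its sequence is that of the recipient strain, apart from what breeding left behind. A count also depends on how much of that DNA the cells carry, and openness and the amount of DNA cannot be told apart in these counts. ES cells are open at enhancers bound by the pluripotency factors OCT4, SOX2 and KLF4. AP-1, a dimer of JUN and FOS proteins, opens many enhancers of fibroblasts and other differentiated cells, and CTCF binds at insulators and loop ends.

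The central 200 bases of 5 of the regions named below are printed first as examples. The first 2 are regions lower and higher in D2-13B6 than in D2 that hold an AP-1 letter string, and the other 3 differed in both congenic lines in opposite directions. The letters searched on both strands were ATGCAAAT (the octamer of OCT4), CACNAGNGG (a core of the CTCF site), TGANTCA (AP-1) and GGGTGTG (KLF). Capitals mark a match, the strand is plus, and the build is GRCm38, the B6 reference, so that alleles of D2 are not shown. The higher region was chosen for its AP-1 letters after its values were seen.
Intergenic region near Gm23012, lower in D2-13B6, chr13:75685692-75685891: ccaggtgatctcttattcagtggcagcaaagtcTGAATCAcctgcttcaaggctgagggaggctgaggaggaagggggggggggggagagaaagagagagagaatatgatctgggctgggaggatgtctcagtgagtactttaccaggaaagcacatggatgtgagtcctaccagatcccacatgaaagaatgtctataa
Iqgap2 intron region, higher in D2-13B6, chr13:95641258-95641457: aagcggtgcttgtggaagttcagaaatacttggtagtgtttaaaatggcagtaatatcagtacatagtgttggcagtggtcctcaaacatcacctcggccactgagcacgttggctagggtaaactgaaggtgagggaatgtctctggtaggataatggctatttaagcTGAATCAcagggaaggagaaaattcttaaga
Gm41031 intron region, chr13:97820318-97820517: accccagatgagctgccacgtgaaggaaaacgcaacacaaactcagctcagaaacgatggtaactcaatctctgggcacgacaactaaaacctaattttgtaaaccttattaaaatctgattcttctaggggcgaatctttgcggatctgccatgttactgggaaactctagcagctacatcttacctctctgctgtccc
Map1b exon region, chr13:99444267-99444466: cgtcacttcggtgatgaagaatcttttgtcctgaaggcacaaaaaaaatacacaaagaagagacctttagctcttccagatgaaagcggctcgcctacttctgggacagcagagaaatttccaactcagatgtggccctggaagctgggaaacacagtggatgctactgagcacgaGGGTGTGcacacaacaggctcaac
Gm3772 intron region, chr13:70103895-70104094: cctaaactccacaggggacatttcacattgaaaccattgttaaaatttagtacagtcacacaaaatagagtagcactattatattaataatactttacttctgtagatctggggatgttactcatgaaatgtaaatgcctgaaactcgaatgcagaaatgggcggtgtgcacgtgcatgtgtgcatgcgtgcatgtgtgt
TGANTCA is its own reverse complement, so that the AP-1 matches of the first 2 regions count on both strands. Both matches read TGAATCA, and the search took any letter at the N. The Map1b region holds a KLF match on the plus strand, and these 4 strings were not found in the central bases of the other 2. A match is a description of the letters and not a measured binding site. Of the tested flank regions 11.7% held the AP-1 string, 9.06% the KLF string, 4.74% the CTCF string and 2.57% the octamer. Among all tested regions of the genome the shares were 10.5%, 9.01%, 4.96% and 2.45%.

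Total counts per library ran from 15198496 to 43042955, and the D2 and D2-13B6 libraries were the deeper ones. Compared with all tested regions, the flank regions were of similar width (median 525 against 549 bp) and lay where genes are sparser (median 6 against 8 protein-coding genes with a start within 500 kb). By annotation 4713 were intergenic, 4032 intronic, 887 in coding exons and 780 in non-coding exons or UTRs, and 1332 lay within 1000 bp of a transcription start and are called promoter regions. Markers of the cell type were checked at promoters. The summed level of 8 ES cell markers was 299.8 to 333 CPM (counts scaled to library size) in D2 and 208 to 245 in D2-13B6, where 7 of 8 were lower (edgeR's quasi-likelihood test, adjusted p under 0.05) and Klf4, at a higher mean level in D2-13B6, was not. The summed level of 5 fibroblast markers was 61.5 to 69.9 CPM in D2 and 92.8 to 123 in D2-13B6, with 4 of 5 higher, and of 4 primitive endoderm markers 1 was higher and 1 lower. No defining marker was at 0 in any line, and the part of these differences in the results on D2-13B6 below was not tested.

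The flanks of chromosome 13 were lower in D2-13B6 than in every other line. The shift of a library is the median, over the flank regions, of the deviation of log2 CPM from the region's mean over all 11 libraries, minus the same median over 17 reference autosomes. Chromosome 11 was left out of the reference because it was itself 0.30 higher in D2-13B6 than in D2. The shift was -0.26, -0.20 and -0.19 in the 3 libraries of D2-13B6. It was 0.07, 0.07 and 0.10 in D2, 0.07 in each B6 library, and 0.11 and 0.07 in B6-13D2. All D2-13B6 libraries therefore lay below all others, and the other 8 libraries lay between 0.07 and 0.11.

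D2-13B6 was lower than D2 by a shift of -0.30 (SE 0.025, 3 against 3 libraries), a fold of 0.813. The exact two-sided permutation test gave p = 0.1, the smallest that 3 against 3 allows, and 0.15 after Benjamini-Hochberg adjustment over the 9 permutation tests made here. B6-13D2 differed from B6 by 0.018 (2 against 3, exact p = 0.2, the smallest possible, adjusted 0.257), with an SE of 0.016. Without B6-13D2 replicate 1 it was 0.0022 and without replicate 2 it was 0.035. The difference between these 2 differences was -0.32 (exact permutation test within both comparisons, p = 0.01, the smallest of 200 arrangements, adjusted 0.09). As the 2 exchanges run in opposite directions, this value adds up B6 interval minus D2 interval over both backgrounds. It does not test whether the shift depended on background. For the 17 reference autosomes D2-13B6 minus D2 ran from -0.034 to 0.052, a range that did not reach the flanks, and for the interval itself it was -0.43. As a share of all counts the flanks held 3.21% ± 0.078 (SD, n = 3) in D2-13B6 and 3.63% ± 0.059 (n = 3) in D2, against 3.57% ± 0.0078 (n = 3) in B6 and 3.61% ± 0.047 (n = 2) in B6-13D2. The ratio of summed counts, which weights strong regions most, gave a smaller shift of -0.17.

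**Figure D1:**
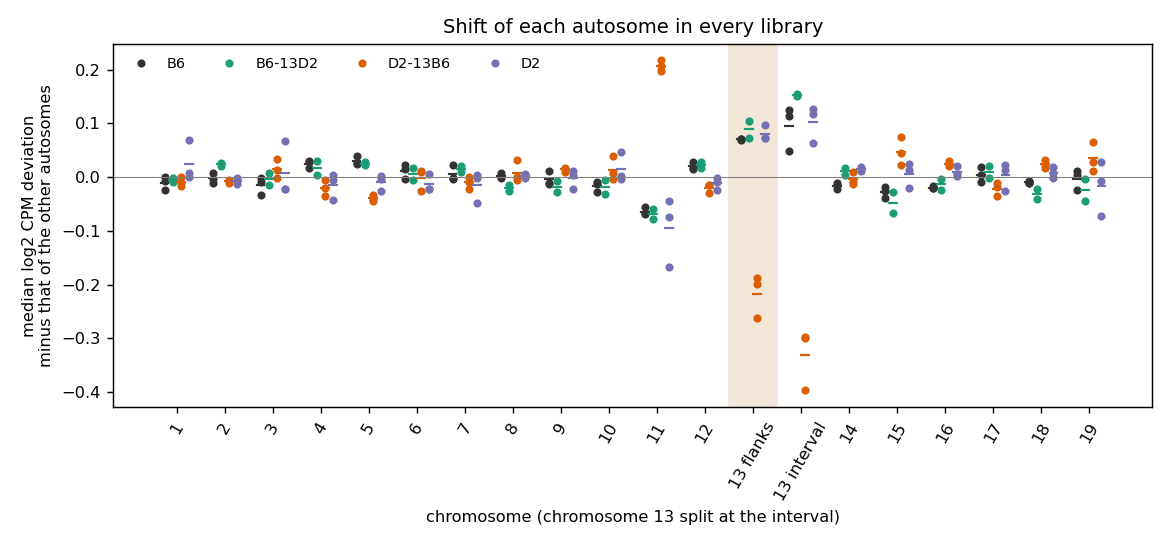
Shift (log2) of each autosome in every library, with chromosome 13 split into its flanks (shaded) and the interval. Each point is a library and each dash a line's mean; the flanks of D2-13B6 lie at -0.26 to -0.19, below all other libraries, and chromosome 11 lies above.

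Region by region, 4046 of the 10412 flank regions (38.9%) differed between D2-13B6 and D2 by edgeR's quasi-likelihood test, with p-values adjusted over all 246840 regions of the genome, where 23.7% were called. They were 2632 lower regions (25.3% of the flank regions, against 8.53% of all regions) and 1414 higher regions (13.6%, against 15.2%). The share of higher regions was close to that of the genome and the share of lower regions was above it. In 3792 of the 4046 (93.7%) the 3 libraries of one line lay wholly above the 3 of the other, against 92.5% of the regions called over the whole genome. Lower regions made up 65.1% of these calls. With a minimum fold of 1.5 they made up 45.3% (576 lower and 695 higher). Their share was 75.01% when libraries were scaled by total counts and 32.8% when libraries were scaled within each chromosome. With the latter scaling, which removes a common shift of the flanks, 3134 were called (30.1%, background 22.5%), 1027 lower (background 6.84%) and 2107 higher (background 15.7%). It kept all 1414 higher calls and 1027 of the lower calls, and 1605 lower calls were lost.

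The lowering was not the same for all flank regions. At the 5th percentile of log2 fold change the flanks stood 0.455 below the reference autosomes (-1.21 against -0.75), and at the 10th 0.446 below. The distance was 0.327 at the median (-0.38 against -0.05) and 0.144 at the 80th percentile (0.31 against 0.46). At the 90th percentile the flanks were at 0.89 and the reference at 0.87, and at the 95th at 1.17 and 1.15. At these upper percentiles the flanks were thus about level with the other autosomes. In the same comparison of percentiles B6-13D2 against B6 differed from the reference by at most 0.043, at the 95th. These percentiles were looked at after the median shift had been seen.

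**Figure D2:**
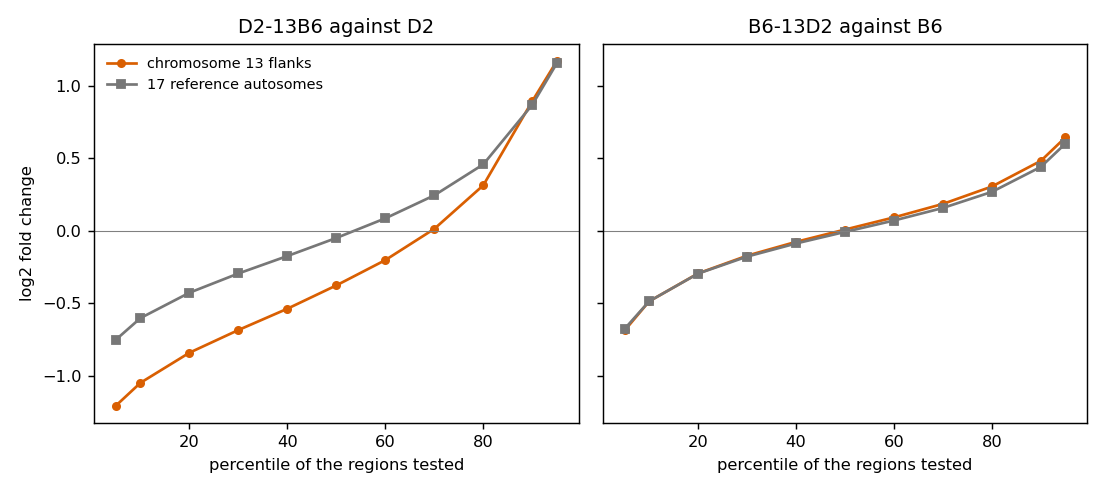
Log2 fold change at the percentiles 5 to 95 of the tested regions, for the flanks of chromosome 13 and for the 17 reference autosomes. In D2-13B6 against D2 (left) the curves are 0.455 apart at the 5th percentile and meet at the 90th; in B6-13D2 against B6 (right) they overlie each other.

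Flank regions with the AP-1 string were shifted less than those without it. Among the 1221 flank regions that held TGANTCA in their central 200 bases, 49.6% were higher in D2-13B6 than in D2 and 10.8% lower; on the reference autosomes 49.9% of such regions were higher and 3.74% lower. Their shift against reference regions with the same string was -0.03 (SE 0.038). The 9191 flank regions without the string had a shift of -0.31 (SE 0.023), with 27.2% lower and 8.79% higher, against 8.56% and 10.9% on the reference autosomes. The 2 shifts differed by 0.28 (exact permutation test, 3 against 3, p = 0.1, the smallest possible, adjusted 0.15), and the 3 libraries of each line did not overlap. This comparison was chosen after the data had been seen, and the fibroblast markers named above were higher in the same libraries; their part in it was not tested.

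The AP-1 string stood in 42.9% of the 1414 higher flank regions, in 5.02% of the 2632 lower ones and in 7.59% of those not called. More higher calls among regions with the string were not particular to the flanks. On the reference autosomes 49.9% of regions with it and 10.9% of those without it were higher. For the other strings the shares among higher, lower and uncalled flank regions lay closer together. The octamer stood in 1.70%, 2.70% and 2.72%, the CTCF core in 4.17%, 2.77% and 5.69%, and the KLF string in 6.29%, 8.85% and 9.75%. Flank regions that held one of these strings had shifts of -0.29 (octamer, n = 268), -0.28 (CTCF, n = 494) and -0.30 (KLF, n = 943). In 5 equal classes of abundance, the shift of AP-1 regions was -0.22 (SE 0.072) in the lowest class and 0.13 (SE 0.041) in the highest. Regions without the string went from -0.34 (SE 0.031) to -0.19 (SE 0.048) over the same classes. AP-1 regions of the proximal flank stood at 0.077 (SE 0.063) and those of the distal flank at -0.10 (SE 0.029), where all D2-13B6 libraries lay below all D2 libraries.

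By width the shift was farthest from 0 in regions of intermediate length. Against reference regions of the same width class the shift was -0.25 (SE 0.029) under 400 bp (n = 3214), -0.30 (SE 0.024) from 400 to under 600 bp (n = 2971) and -0.35 (SE 0.029) from 600 to under 1000 bp (n = 2341). It was -0.35 (SE 0.03) from 1000 to under 2000 bp (n = 1473) and -0.18 (SE 0.061) in the 413 regions of 2000 bp or more. Regions of at least 1000 bp differed from those under 400 bp by -0.075 (exact permutation test, 3 against 3, p = 0.1, adjusted 0.15). This difference was -0.048 without D2-13B6 replicate 2 and -0.13 with summed counts. The share of lower calls rose with width, from 9.65% under 400 bp to 49.6% from 1000 to under 2000 bp, but so did that of the reference autosomes, from 2.22% to 19.4%.

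The flank regions also differed by abundance. The shift was -0.33 (SE 0.03) in the lowest of the 5 classes by mean log2 CPM, then -0.34 (SE 0.03), -0.29 (SE 0.033) and -0.28 (SE 0.031), and -0.17 (SE 0.047) in the highest. The highest class differed from the lowest by 0.16 (exact permutation test, 3 against 3, p = 0.1, adjusted 0.15). Because this mean includes the D2-13B6 libraries, the classes were also set by the level per kb in B6 and B6-13D2 only, a choice made after the data had been seen. The shift then went from -0.31 (SE 0.029) in the lowest class to -0.21 (SE 0.038) in the highest. Promoter regions of the highest class (n = 695) had a shift of -0.18 (SE 0.031), and those of the class next to it (n = 200) -0.35 (SE 0.011).

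Width and abundance were also crossed, with abundance classes numbered from 1 (lowest) to 5 (highest). Among regions under 400 bp the shift was -0.33 in class 1 (n = 1562), -0.26 in class 2 (n = 885), 0.31 in class 3 (n = 479) and 0.04 in class 4 (n = 266). Among regions from 400 to under 1000 bp it was -0.33 in class 1 (n = 517), -0.35 in class 2 (n = 1193), -0.33 in class 3 (n = 1557), -0.27 in class 4 (n = 1458) and 0.05 in class 5 (n = 587). Among regions of at least 1000 bp it was -0.40 in class 4 (n = 358) and -0.25 in class 5 (n = 1474). In class 1 both widths had the same shift, and in classes 3 and 4 the shortest regions lay above 0 while the wider ones lay below. The crossed values are a description and were not tested.

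Gene density did not separate the flank regions beyond the spread between libraries. In 3 classes of density the shift was -0.30 (SE 0.03) with the fewest genes nearby (n = 3168), -0.29 (SE 0.041) in the middle class (n = 3427) and -0.29 (SE 0.025) with the most (n = 3817). The outer classes differed by 0.0039 with an SE of 0.023 (exact permutation test, 3 against 3, p = 0.9, adjusted 0.9). With summed counts in place of medians the difference was -0.042, of the opposite sign. Promoter regions (-0.26, SE 0.033) and all others (-0.30, SE 0.023) had similar shifts, as did intronic (-0.30) and intergenic (-0.30) regions, and coding exons stood at -0.25 (SE 0.033). Regions at least 50% soft-masked as repeats (n = 1649) were shifted by -0.36 (SE 0.026) and those with no masked base (n = 1117) by -0.24 (SE 0.034); in 3 classes of GC content the shifts were -0.27, -0.31 and -0.32 from low to high.

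**Figure D3:**
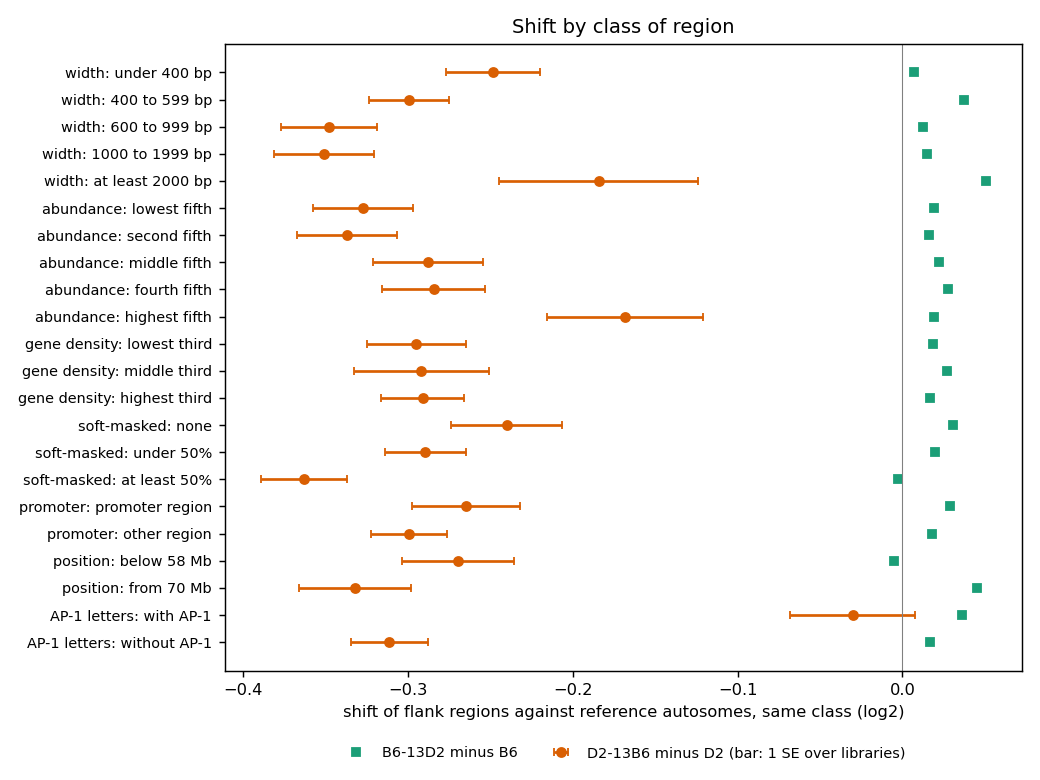
Shift (log2) of flank regions against reference regions of the same class, for D2-13B6 minus D2 (circles, bar 1 SE over libraries) and B6-13D2 minus B6 (squares). Every class lies below 0 in D2-13B6, from -0.36 to -0.03, and the regions with AP-1 letters lie nearest to 0.

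Along the chromosome the lowering reached both ends. The proximal flank was shifted by -0.27 (SE 0.034) and the distal flank by -0.33 (SE 0.034), a difference of -0.062 that did not exceed the spread between libraries (exact permutation test, 3 against 3, p = 0.3, adjusted 0.337) and was -0.023 without D2 replicate 3. In the 21 bins of 5 Mb that lie wholly in the flanks the shift of D2-13B6 minus D2 ran from -0.44 (85 to 90 Mb) to -0.12 (30 to 35 Mb), with a median of -0.31. In 20 of these 21 bins all D2-13B6 libraries lay below all D2 libraries, and in the other, at 50 to 55 Mb, D2 replicate 3 (-0.074) fell just below D2-13B6 replicate 2 (-0.072). On the reference autosomes 38 of 447 bins did so; their values ran from -0.26 to 0.19, and none lay at or below the median of the flank bins. The bin next to the interval, at 70 to 75 Mb, had -0.33 and the last one, at 115 to 120 Mb, -0.37. Leaving out the 5 Mb next to the interval on each side left the shift of all flank regions at -0.30.

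The bins at 75 to 90 Mb stood out in a single library. There D2 replicate 3 had shifts of 0.38, 0.31 and 0.33, while D2 replicates 1 and 2 lay between -0.10 and 0.08. These bins hold few genes (a median of 1 to 3 within 500 kb) and much repeat sequence (34.2% to 48.5% of bases soft-masked). Without D2 replicate 3 the 21 bins ran from -0.37 to -0.11 with a median of -0.29. Over the 21 bins the shift followed the soft-masked share (Spearman's rho -0.83, Pearson's r -0.79) and less so gene density (rho 0.48, r 0.27). The 447 reference bins, which share the same libraries, gave rho -0.59 with the soft-masked share. Without D2 replicate 3 the rho with the soft-masked share was -0.46 over the flank bins and -0.20 over the reference bins, and with gene density it was 0.11 over the flank bins and -0.07 over the reference bins.

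**Figure D4:**
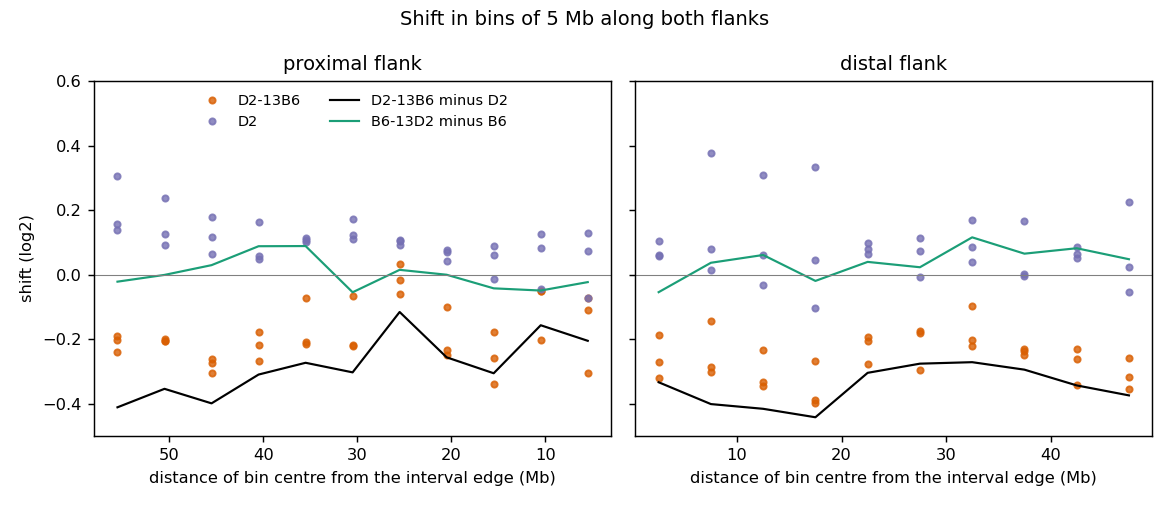
Shift (log2) in bins of 5 Mb against the distance of the bin centre from the interval edge, for the proximal (left) and the distal flank (right). Points are libraries of D2-13B6 and D2 and lines are the differences of line means; D2-13B6 minus D2 lies between -0.44 and -0.12, and B6-13D2 minus B6 between -0.055 and 0.12.

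At strain-different regions the flanks mostly lay near the parental line of their background. Of the flank regions that differed between D2 and B6, a share of 4.70% to 23.8% per bin lay nearer to B6 in D2-13B6, once scaled within the chromosome. In the bin at 65 to 70 Mb, inside the interval, that share was 69.1%. In B6-13D2 a share of 7.69% to 26.6% per flank bin lay nearer to D2, against 84.2% at 65 to 70 Mb. In the other bin wholly inside the interval, at 60 to 65 Mb, the shares were 26.4% and 29.6%, close to the highest flank bins.

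B6-13D2 and B6 differed at few flank regions. By edgeR's quasi-likelihood test 51 of 10412 were called (0.49%, where 0.474% of all regions were), 41 lower in B6-13D2 (background 0.335%) and 10 higher (background 0.139%). The count rested on single libraries: it was 15 without B6-13D2 replicate 2, 16 without replicate 1 and 29 without B6 replicate 2. Within 2 Mb of the interval 7 of 355 regions were called (1.97%). From 2 to 5 Mb 0 of 723 were, by edgeR and by DESeq2, although 42 had an unadjusted p under 0.05, and in the classes of distance beyond 5 Mb the share was 0.445% to 0.532%. In D2-13B6 against D2 the share called was 33.8% within 2 Mb and 36.9% to 40.0% farther away.

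D2 and B6 differed at 2305 flank regions (22.1%, against 22.5% of all regions), 1514 higher in D2 (background 13.7%) and 791 lower (background 8.8%). The lower share was 34.3%, and 46.9% when scaled by total counts. The 2 exchange effects, D2-13B6 minus D2 and B6-13D2 minus B6, differed at 2063 flank regions (19.8%, against 12.2% of all regions), 1253 of them with the lower value in D2-13B6 (background 3.84%) and 810 with the higher (background 8.32%). The lower ones were 60.7% of these, 73.4% with total counts and 26.5% when scaled within each chromosome. Without B6-13D2 replicate 1 the count was 1210, and without replicate 2 it was 1334. The 2 exchanges run in opposite directions, so that an equal difference by interval on both backgrounds also gives such a call. The 2063 regions are therefore no count of regions where the difference depended on background. The 3 comparisons with D2 or B6 share libraries, and their values are set side by side only.

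Single regions illustrate the range, named by their p-values in each direction. A 1014 bp region in a coding exon of Cmya5, which encodes a large muscle protein, lay at chr13:93096391-93097405. Its level was 32.9, 25.5 and 29.8 CPM in D2 and 7.95, 11.3 and 7.05 in D2-13B6. In B6 it was 2.69, 2.74 and 3.15, and in B6-13D2 2.91 and 2.64. The level was thus highest in D2 and lowest in B6 and B6-13D2, and D2-13B6 lay between them without overlap. D2-13B6 was lower than D2 by a log2 fold change of -1.75 (SE 0.17, edgeR adjusted p = 1.3e-11), and D2 exceeded B6 by 3.36 (SE 0.20, adjusted p = 2.79e-22).

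An intergenic region at chr13:75685035-75686548, 5424 bp from the start of Gm23012, had 3.17, 2.94 and 3.03 CPM in D2-13B6 and 11.4, 9.24 and 12.98 in D2. B6 had 6.82, 7.75 and 6.13 and B6-13D2 8.64 and 5.68, so that D2-13B6 was the lowest of all lines here. Its log2 fold change against D2 was -1.87 (SE 0.18, edgeR adjusted p = 1.24e-11). It holds an AP-1 string although it was lower. A region in an intron of Gm35330 (chr13:5689707-5691528, 78.7% soft-masked) had 3.92, 3.94 and 2.82 CPM in D2-13B6 against 12.9, 10.3 and 14.6 in D2. That level in D2-13B6 overlapped the B6 range of 2.87 to 3.76. The intergenic region at chr13:85146012-85147345 had 5.77, 5.91 and 2.79 CPM against 16.7, 13.98 and 22.5 in D2, below the B6 range of 11.2 to 13.8.

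Among the higher regions, one in an intron of Iqgap2, a scaffold protein of the actin cytoskeleton, lay at chr13:95640974-95641741. D2-13B6 had 13.5, 22.7 and 17.1 CPM there and D2 4.49, 6.75 and 5.70. The 5 libraries of B6 and B6-13D2 lay between 2.59 and 4.27, so that D2-13B6 stood above every other line. The log2 fold change against D2 was 1.65 (SE 0.18, edgeR adjusted p = 6.48e-10). Within an intron of Gm34471, chr13:113550844-113551517 had 19.3, 29.4 and 21.2 CPM in D2-13B6 and 6.33, 9.69 and 7.36 in D2. B6 had 3.84 to 4.46 there, and the log2 fold change was 1.58 (SE 0.17, adjusted p = 6.48e-10).

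The other 2 higher regions were intergenic and differed in what the B6 lines showed. At chr13:90233830-90234356, which is 71.2% soft-masked and holds an AP-1 string, D2-13B6 had 7.09, 11.7 and 6.16 CPM and D2 2.52, 2.14 and 2.46. B6 was at 1.23 to 2.14, so that this region too was highest in D2-13B6. At chr13:23497618-23499205, 8761 bp from the start of Btn2a2, D2-13B6 had 6.96, 11.03 and 7.33 CPM, near the 9.94 to 11.1 of B6, and D2 only 2.23, 2.89 and 2.64. Here D2-13B6 had the level of the other strain, and its log2 fold change against D2 was 1.70 (SE 0.19, edgeR adjusted p = 5.01e-10).

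The 2 lower regions named for B6-13D2 moved toward the level of D2. At chr13:115504068-115504709, intergenic and 81.8% soft-masked, B6 had 3.33, 3.17 and 3.85 CPM and B6-13D2 0.591 and 0.498. D2 was at 0.696 to 1.17, and the log2 fold change of B6-13D2 against B6 was -2.65 (SE 0.36, edgeR adjusted p = 7.19e-07). At chr13:14564677-14565426, wholly soft-masked, B6 had 5.99, 5.73 and 4.90 CPM and B6-13D2 1.64 and 1.15, against 1.87 to 2.28 in D2. Both of these regions hold a CTCF string and were lower in B6-13D2 than in B6 without overlap. Reads from near-identical repeat copies could be placed at either copy, and how such reads were treated is not given in the sources used here.

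Both congenic comparisons called 9 flank regions (0.0864%), against 507 regions of the whole genome including the interval (0.205%). Of the 9, 6 moved in opposite directions in the 2 congenic lines (66.7%) and 3 moved the same way. Over the whole genome 480 of the 507 moved in opposite directions (94.7%), a larger share than in the flanks. The strongest of the 6 flank regions was in an intron of Gm41031 (chr13:97819549-97821285, 57.5% soft-masked). B6 had 4.09, 4.45 and 3.896 CPM and B6-13D2 11.96 and 10.1, while D2 had 10.5, 8.25 and 8.48 and D2-13B6 3.82, 4.00 and 3.78. In all 11 libraries the level thus went with the strain of the interval and not with that of the rest of the genome. B6-13D2 exceeded B6 by 1.42 on the log2 scale (SE 0.20, adjusted p = 1.91e-06 by edgeR), and the value for D2-13B6 against D2 was -1.23 (SE 0.17, adjusted p = 1.13e-07).

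The second was a 2201 bp region at a coding exon and internal start of Map1b, a microtubule-associated protein of neurons, at chr13:99443266-99445467. Its level was 7.55, 7.99 and 9.89 CPM in B6, 18.6 and 20.03 in B6-13D2, 15.3, 13.5 and 13.9 in D2 and 5.46, 5.18 and 7.08 in D2-13B6. The libraries with the D2 interval (13.5 CPM and more) did not overlap those with the B6 interval (9.89 CPM and less). B6-13D2 exceeded B6 by 1.19 (SE 0.19, edgeR adjusted p = 3.07e-05) and D2-13B6 was below D2 by -1.27 (SE 0.17, adjusted p = 3.93e-08). The call in B6-13D2 was lost with a minimum fold of 1.5 (adjusted p = 0.105). The strongest promoter region of Map1b, at chr13:99513889-99517245, was called in neither comparison; scaled within each chromosome it was higher in D2-13B6 than in D2 (0.58, edgeR adjusted p = 0.00748). The last of these regions lay at the edge of the interval, in an intron of Gm3772 (chr13:70103350-70104639), and was lower in the lines with the D2 interval. It had 3.99, 4.94 and 4.33 CPM in B6 and 2.09 and 1.79 in B6-13D2, and 5.07, 6.88 and 5.30 in D2-13B6 and 1.76, 3.13 and 3.41 in D2. Its call in B6-13D2 against B6 (edgeR adjusted p = 0.0124) was lost without either B6-13D2 library or without B6 replicate 2.

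**Figure D5:**
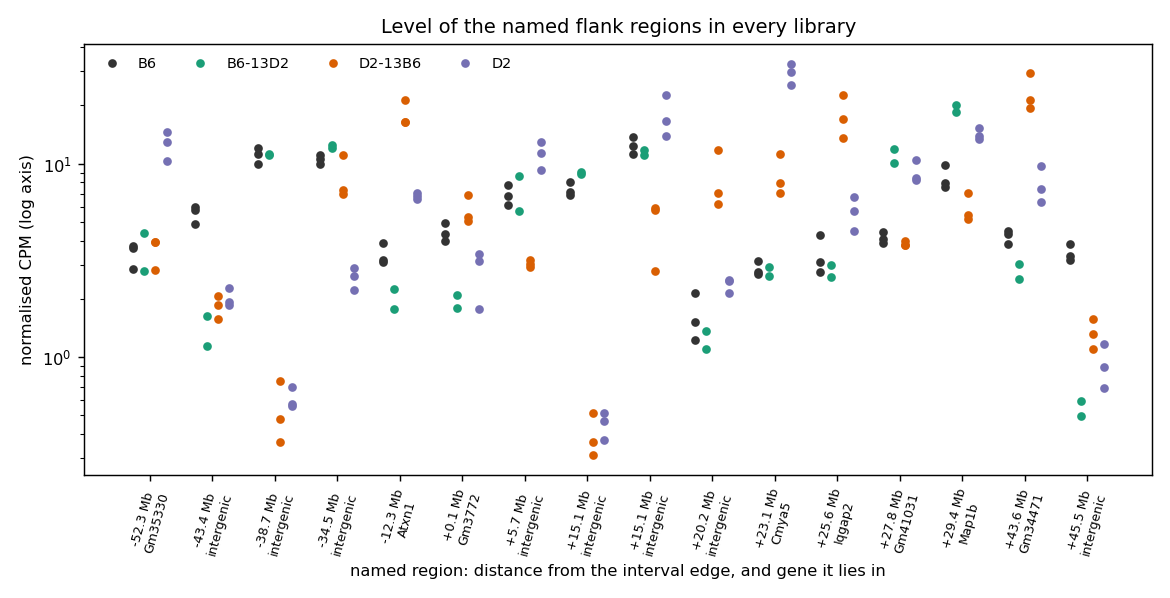
Normalised CPM (log axis) of the named flank regions in every library, placed by distance from the interval edge. In the Gm41031 and Map1b regions B6-13D2 and D2 lie above B6 and D2-13B6, and in the Iqgap2 and Gm34471 regions D2-13B6 lies above all other lines.

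A further pair of regions marked the strain difference. Near Tcrg-C3, a constant segment of a T cell receptor locus, chr13:19264899-19265839 had 10.002 to 12.1 CPM in B6 and 11.1 and 11.2 in B6-13D2. D2 had 0.562 to 0.7004 and D2-13B6 0.364 to 0.758. At chr13:85142828-85143953 the B6 lines had 6.89 to 9.01 CPM and the D2 lines 0.312 to 0.516. Both regions followed the background of the line and not the interval, and they are 83.3% and 87.7% soft-masked. Where the exchange effects differed most with the higher value in D2-13B6, a region in an intron of Atxn1 (chr13:45684791-45685422), which holds an AP-1 string, had 16.4, 21.2 and 16.4 CPM in D2-13B6. D2 had 6.54, 7.01 and 6.82, B6 3.09 to 3.896 and B6-13D2 1.77 and 2.24, and the difference of the effects was 2.16 (SE 0.30, edgeR adjusted p = 3.77e-07).

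Promoters of the flanks were described through 6 gene lists, in which the region with the highest mean level near a gene's start stands for the gene. All 1332 promoter regions of the flanks had a median log2 fold change of -0.21 in D2-13B6 against D2, and 462 were called (34.7%), 327 lower (24.5%) and 135 higher (10.1%). The 38070 promoter regions of the whole genome had a median of 0.07, with 23.8% called, 8.04% lower and 15.8% higher. Scaled within each chromosome, the flank promoters had a median of 0.12, with 130 lower and 337 higher, so that their direction depended on the scaling. Between D2 and B6 414 of the 1332 were called (31.1%), a share close to the 31.4% of all promoter regions. Of the 1332, 348 were higher in D2 (26.1%, against 24.8% of all promoter regions). In B6-13D2 against B6 2 of the 1332 were called (0.15%, against 0.263% of all promoter regions).

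Among regulators of the ES cell state, LIF signalling and chromatin no promoter was called in D2-13B6 against D2. Of 9 promoters 0 were called by edgeR, with 0 at an unadjusted p under 0.05 and 0 by DESeq2, and their median log2 fold change was 0.13. With total counts the median was -0.06 and again 0 were called, and scaled within each chromosome it was 0.47 and 6 were higher. Jarid2, a subunit of the Polycomb complex PRC2, had 48.6, 49.8 and 33.9 CPM in D2-13B6 and 44.9, 42.9 and 44.4 in D2. Dek, a chromatin protein, had the highest value of the list (0.31, SE 0.16, edgeR adjusted p = 0.173), and Il6st, the gp130 subunit of the LIF receptor, the lowest (-0.02, SE 0.17, adjusted p = 0.944). Against B6, D2 was higher at 7 of these 9, for example at Klf6 (0.79, SE 0.18, edgeR adjusted p = 0.000422). Of all promoter regions 24.8% were higher in D2. Among flank promoter regions of the highest abundance class 45.3% were called between D2 and B6, in either direction.

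Developmental regulators split. Of 19 promoters 4 were higher in D2-13B6 than in D2 and 2 lower, with a median of -0.12 (0.22 when scaled within each chromosome). Of all flank promoter regions 10.1% were higher and 24.5% lower. Edn1, the vasoconstrictor peptide endothelin, had 21.7, 32.0 and 20.9 CPM in D2-13B6 and 14.6, 17.1 and 15.9 in D2, without overlap (0.65, SE 0.17, edgeR adjusted p = 0.00196). Inhba, an activin subunit, had 18.1, 27.1 and 18.7 CPM against 14.4, 13.8 and 13.1 (0.63, SE 0.17, adjusted p = 0.0028). The transcription factor genes Sox4 (0.52) and Mef2c (0.55) were the other 2 higher ones. Bmp6, a BMP ligand (17.9, 20.2 and 14.5 CPM against 27.5, 21.96 and 25.5), and the homeobox gene Otp were lower, both by -0.51. These 2 were no longer called when scaled within each chromosome or with RLE size factors, while the 4 higher ones were called under every scaling tried. Without D2 replicate 1 or 3 the calls of Bmp6 and Otp were lost, without D2 replicate 2 those of Sox4 and Mef2c, and without D2 replicate 1 that of Mef2c. With total counts 10 of the 19 were lower and 4 higher. Gcm2, which directs parathyroid development, had the lowest value of the list but was not called (-0.76, SE 0.31, adjusted p = 0.0637).

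Housekeeping groups showed no calls by edgeR in D2-13B6 against D2. Their medians stand beside -0.01 for all flank promoter regions of the highest abundance class. Of 11 promoters of cell cycle and DNA repair genes, 1 of which serves both Cenpk and Ppwd1, 0 were called by edgeR, 3 had an unadjusted p under 0.05 and DESeq2 called 2. The median of these 11 was 0.04. The values ran from -0.39 (SE 0.17, edgeR adjusted p = 0.0913) at Cenph, a kinetochore protein, to 0.42 (SE 0.16, adjusted p = 0.0512) at Cdk7, the kinase of TFIIH. Of 11 promoters of sterol and mitochondrial genes 0 were called by edgeR and 0 by DESeq2, 1 had an unadjusted p under 0.05, and the median was 0.07. Values ran from -0.35 at Ndufs4, a subunit of complex I, to 0.20 at the peptidase gene Pitrm1. Total counts gave 3 lower cell cycle promoters and 4 lower ones among the sterol and mitochondrial genes, and scaling within each chromosome gave 3 and 5 higher ones. Between D2 and B6, 9 of 11 cell cycle promoters and 6 of 11 sterol and mitochondrial ones were higher in D2, against 24.8% of all promoter regions. In the highest abundance class 45.3% of flank promoter regions were called in either direction.

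Among the listed promoters, those of adhesion and tissue-restricted genes held the largest changes. Of 12 cytoskeleton and adhesion promoters 2 were lower and 1 higher, with a median of -0.15 (0.19 when scaled within each chromosome). The shares among all flank promoter regions were 24.5% lower and 10.1% higher. Ocln, the tight junction protein occludin, had 9.14, 9.48 and 6.43 CPM in D2-13B6 and 18.4, 13.4 and 16.9 in D2, below the 12.3 to 13.8 of B6 as well (-0.96, SE 0.17, edgeR adjusted p = 9.13e-06). Nid1, a basement membrane protein, was lower by -0.57 (SE 0.18, adjusted p = 0.0119) and lost its call when scaled within each chromosome and without D2-13B6 replicate 1 or 3 or D2 replicate 3. Arhgef28, an exchange factor for RhoA, was higher by 0.50 (SE 0.17, adjusted p = 0.0245), a call that was lost with total counts, without D2-13B6 replicate 2, without D2 replicate 2 or without D2 replicate 3.

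Among 9 germline and tissue-restricted promoters 3 were lower and 2 higher, with a median of -0.01 (0.33 when scaled within each chromosome). These counts stand beside 24.5% lower and 10.1% higher among all flank promoter regions. Ddx4, the RNA helicase VASA of germ cells, had 2.18, 1.67 and 2.17 CPM in D2-13B6 and 4.54, 4.04 and 5.36 in D2 (-1.21, SE 0.20, edgeR adjusted p = 3.22e-06). Ryr2, the calcium release channel of heart muscle, had 12.7, 11.1 and 7.81 CPM against 24.5, 20.6 and 22.9 (-1.10, SE 0.17, adjusted p = 6.17e-07). Serpinb1a, an inhibitor of neutrophil proteases, had 6.42, 9 and 7.70 CPM against 2.80, 3.78 and 3.95 (1.13, SE 0.19, adjusted p = 2.92e-06), and 1.26 to 1.31 in B6. The calls of these 3 and of Ocln held under every scaling tried and without each library in turn. Akr1c18, a steroid dehydrogenase (0.76, SE 0.25, edgeR adjusted p = 0.0199), lost its call with total counts and without replicate 1 or 2 of either line. In B6-13D2 against B6 0 of the 71 listed promoters were called by edgeR, 0 had an unadjusted p under 0.05 and DESeq2 called 0.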

How the data were processed

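ATAC-seq counts were analysed for 11 libraries of 4 lines, grouped by the labels' line names. The authors deposited whole-number counts per region for 248336 regions, with duplicate and mitochondrial reads removed per the file headers. The submitters' processing notes name mm10, Trimmomatic 0.39, BWA 0.7.5, Picard 2.0.1, MACS 1.4.2, bedtools 2.9.2 and edgeR 3.34.1, without roles. The treatment of multiply mapped reads and any shift for the transposase are not given in the sources used here. Total counts ran from 15198496 to 43042955, so that low regions are least precise.

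All 246840 regions that passed filterByExpr were fitted together in edgeR 4.0.16 (R 4.3.3; TMM, robust quasi-likelihood, a coefficient per line), with Benjamini-Hochberg adjustment over all of them and a threshold of 0.05. Shifts used log2 CPM with a prior count of 2 in Python 3.11.15 and were compared by exact two-sided permutation tests over libraries. Class shifts are set against reference regions of the same class. Coordinates are as deposited; sequence is RefSeq GRCm38 and annotation GENCODE M21. Of 81 listed genes 72 had a flank promoter region. Named regions are those with the smallest p-values in each direction whose libraries do not overlap, those called in both congenic comparisons, and the listed genes with the highest and lowest fold change; other listed genes and the AP-1, percentile and crossed-class comparisons were chosen after the values were seen. The members, lists and tests were chosen with earlier results of these data known. Alternatives covered scaling (RLE, total counts, TMM without chromosomes 11 and 13, within each chromosome), filter, DESeq2 1.42.0, minimum fold, libraries fitted, replicate block and leaving out each library. The scripts' fits were tested on simulated data. Some single-gene results of the lists are not reported here.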

Additional observations from a re-analysis of the deposited data

Results flagged for a closer look

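The 2 exchange effects differed from each other in the flanks. The contrast of these effects in edgeR's quasi-likelihood fit called 2063 of 10412 flank regions (19.8%, against 12.2% of all regions). Because the 2 exchanges run in opposite directions, an equal difference by interval on both backgrounds also gives such a call. The contrast is therefore no test of dependence on background. The shift of the flanks in D2-13B6 against D2 differed from that in B6-13D2 against B6 by -0.32, with an exact permutation p of 0.01 (adjusted 0.09). This value too adds up the differences by interval and does not test whether the shift depended on background.

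Named regions with a difference between the 2 exchange effects were the Gm41031 intron region, peak13_97819549_97821285 (-2.65, SE 0.26, edgeR adjusted p = 1.51e-11), and the Map1b exon region, peak13_99443266_99445467 (-2.46, SE 0.25, adjusted p = 5.2e-11). The Gm34471 intron region, peak13_113550844_113551517, had 2.17 (SE 0.30, edgeR adjusted p = 3.68e-07), and the Atxn1 intron region, peak13_45684791_45685422, had 2.16 (SE 0.30, adjusted p = 3.77e-07). In the Gm41031 and Map1b regions the level went with the strain of the interval on both backgrounds. D2-13B6 minus D2 was -1.23 and -1.27 there, and B6-13D2 minus B6 was 1.42 and 1.19. Both regions were named because they were called in both congenic comparisons, and the contrast adds up these differences. When scaled within each chromosome, D2-13B6 minus D2 was -0.893 and -0.939, and B6-13D2 minus B6 was 1.397 and 1.169. Whether the difference by interval at these regions depended on background was not tested.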

How the results depend on the processing

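With total counts as the scale, the genome-wide median fold moved by -0.17 (log2) in D2-13B6 against D2 and by -0.13 in D2 against B6. A minimum fold of 1.5 lowered the called flank regions to 1271 in D2-13B6 against D2 (12.2%, against 6.87% of all regions). It left 14 in B6-13D2 against B6 (0.134%, against 0.15%) and 620 in D2 against B6 (5.95%, against 5.93%). These 2 shares were near those of all regions. The difference of the exchange effects kept 652 (6.26%, against 3.77%). Fitted with only its own 5 libraries, B6-13D2 against B6 gave 119 calls. Leaving out each library gave 3282 to 4424, 15 to 73, 1708 to 2575 and 1210 to 2549 calls in the same order. The shift of D2-13B6 against D2 lay between -0.31 and -0.28 in these runs, and the AP-1 difference between 0.25 and 0.30. The difference by gene density was -0.042 with summed counts and ran from -0.0098 to 0.025 without single libraries, on both sides of 0. The Il6st promoter, at -0.02, turned to 0.0533 with DESeq2, 0.0532 with RLE factors and 0.316 when scaled within each chromosome, and ran from -0.188 to 0.0937 without single libraries. The differences by width, abundance, position and AP-1 string kept their sign under the alternatives run for them.

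Same-numbered libraries did not deviate together (correlations of -0.049 to 0.068 over 15 pairs), so that the numbers pair nothing. With the replicate block the counts were 4138, 56, 2377 and 2278, and the shift stayed at -0.30 (exact permutation p = 0.25 over 3 pairs). With 2 or 3 libraries a line and 1 line a genotype, no permutation test could pass 0.05 for a single pair of lines, and low regions of the shallower B6 and B6-13D2 libraries limit what could be called.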
